A study of Mus musculus with 16 samples.

Results

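The genes described here encode histone methyltransferases and demethylases, the enzymes that place and remove methyl groups on histone tails. They were chosen by name alone, as the genes whose symbol starts with Kmt, Kdm, Setd, Prmt, Ezh, Suv39h, Ehmt, Nsd or Smyd followed by a number. This gave 55 of the 18193 genes that have a probe of their own on the array, 37 methyltransferases and related proteins and 18 demethylases, read by 156 of 34945 probes. Expression was measured on an Affymetrix mouse whole-genome array. The tissue was the whole left cochlea of the male DBA/2J mouse, a strain whose Cdh23 and Fscn2 variants are linked to progressive hearing loss, and each array held 1 cochlea of 1 mouse. Mice of the 4-week group (n = 5) were taken aged 4 weeks, before any injection. Those of the control group (n = 5) were given vehicle, 0.1 M sodium bicarbonate, subcutaneously each day for 8 weeks and were taken aged 12 weeks. The M+V mice (n = 6) were given MET (L-methionine, 500 mg/kg) plus VPA (valproic acid, 300 mg/kg) dissolved in it on the same schedule and were also taken aged 12 weeks. No array held MET or VPA alone, so the pair is compared as 1 treatment, and no array at 12 weeks lacked injections, so age and vehicle cannot be told apart.

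Histone methyltransferases take the methyl group from S-adenosylmethionine, which cells make from methionine. Most carry a SET domain and act on lysines, and the PRMT enzymes act on arginines. Methylation of lysine 4 of histone H3 (H3K4) marks promoters and enhancers in use, methylation of H3K36 marks transcribed gene bodies, and methylation of H3K9, H3K27 and lysine 20 of histone H4 (H4K20) marks repressed or compacted chromatin. The KDM1 demethylases use a flavin cofactor, and the other KDM enzymes use iron, oxygen and alpha-ketoglutarate. VPA inhibits histone deacetylases, which sit in complexes with several of these enzymes, Kdm1a among them. The arrays measured transcripts, and neither enzyme activity nor histone methylation.

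Promoters of broadly used genes are often rich in CpG dinucleotides, and those of most of these enzymes were. In the RefSeq promoter table of build GRCm38.p6, which gives 300 bases around a transcript start, 43 of the 55 genes had 55 promoters with a median of 27 CpG dinucleotides. The median was 20 over 12008 promoters of the genes tested here and 7 over all 32851 promoters of the table. The share with 20 or more CpGs was 65.5% for these genes, 52.5% for the tested genes and 26.5% for all. The letters TATAAA, looked for on both strands, stood in 5.45% of their promoters, against 7.45% and 13.6%. The next lines show the 250 bases upstream of the start for 3 genes, with every CpG in capitals: Kmt2c, the gene nearest to a call below (chr5:25498784-25499033, minus strand, 48 CpGs in this stretch), Ezh1, whose probes disagreed (chr11:101226464-101226713, minus strand, 14 CpGs), and Smyd1, a muscle gene that was dim in these cochleae (chr6:71262282-71262531, minus strand, 2 CpGs). DNA methylation was not measured, and these letters are a description only.
Kmt2c: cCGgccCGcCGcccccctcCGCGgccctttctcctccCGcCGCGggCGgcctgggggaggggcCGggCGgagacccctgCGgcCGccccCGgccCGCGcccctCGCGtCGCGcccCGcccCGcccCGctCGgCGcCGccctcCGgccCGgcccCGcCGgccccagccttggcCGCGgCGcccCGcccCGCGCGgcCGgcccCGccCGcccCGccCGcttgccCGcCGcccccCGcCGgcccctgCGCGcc
Ezh1: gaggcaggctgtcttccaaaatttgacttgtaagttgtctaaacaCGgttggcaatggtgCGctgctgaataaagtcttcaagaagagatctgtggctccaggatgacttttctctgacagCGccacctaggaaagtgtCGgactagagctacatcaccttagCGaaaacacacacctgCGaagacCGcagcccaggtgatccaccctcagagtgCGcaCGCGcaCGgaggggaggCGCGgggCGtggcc
Smyd1: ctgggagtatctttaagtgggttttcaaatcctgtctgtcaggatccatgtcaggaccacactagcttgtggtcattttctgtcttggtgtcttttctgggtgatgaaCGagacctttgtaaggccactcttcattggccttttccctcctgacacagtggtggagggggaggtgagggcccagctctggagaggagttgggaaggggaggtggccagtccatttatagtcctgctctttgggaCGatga

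Each probe reads 1 stretch of a transcript, and its value is a log2 signal. The median over probes was 6.90 in every array. A gene is described by its brightest probe, the one with the highest mean over the 16 arrays, and a level is compared only within a probe. Probes were tested if all arrays of any 1 group had them at the array median or higher. By this rule 51 of the 55 genes were tested, and Kdm4b, Kdm4d, Prmt8 and Smyd1 were not. Differences are log2 differences of group means with their standard error (SE) from 1 limma model of the 3 groups, with p adjusted by Benjamini-Hochberg across the 21391 tested probes.

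The arrays differed in ways that the groups explain only in part. The bacterial hybridisation control bioB was high (8.91 to 9.62) in 8 arrays, namely every 4-week array, 1 control array (replicate 1) and 2 M+V arrays (replicates 1 and 2), and low (5.73 to 6.08) in the other 8. Values within a level are given where they bear on a result. Of 13 cochlear markers, 11 were tested, and the outer hair cell gene Slc26a5 (mean 2.80) was near the floor. Against the mean over all arrays, M+V replicate 1 was at -6.24 over 5 erythroid markers and at -2.77 over 8 markers of B cell precursors. Oligodendrocyte and astrocyte markers were at -0.83 in M+V replicate 1, -0.70 in replicate 2 and -0.998 in replicate 5. Over 8 skeletal muscle markers, 2 of them tested, arrays ran from -1.63 in M+V replicate 1 to 2.66 in control replicate 5. For M+V against control 0 of the muscle, B cell precursor, erythroid and oligodendrocyte and astrocyte markers lay above 0. Above 0 were 11 of 13 cochlear, 8 of 8 neutrophil and 1 of 7 proliferation markers. All 8 neutrophil markers were higher at 12 weeks in both groups, and 2 of the 8 rose in control and 4 in M+V cochleae. In whole tissue, fewer cells of a type and less RNA per cell cannot be told apart.

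After M+V treatment no histone methyltransferase or demethylase transcript passed the limma test across all probes. Of the 51 tested genes, 0 passed an adjusted p of 0.05 between the M+V and control cochleae, and 0% of all 11450 tested genes did. At an unadjusted p under 0.05 there were 3 of 51, against 8.83% of all tested genes. Nsd3 and Kmt2c were lower after M+V (3.74% of all tested genes were lower by this rule) and Kmt5b was higher (5.09%). By the study's cutoffs, which ask for more than a 1.5-fold change at an unadjusted p under 0.05, 0 of 51 passed, against 1.19% of tested genes. The methods' t-test gave 3 of 51 at an unadjusted p under 0.05, a count not made over all genes. After adjustment it gave 0, and 0 of all 21391 tested probes. The median log2 difference over the 55 genes was -0.01, against 0.02 over all genes, and 23 of 55 lay above 0. The median size of the difference was 0.07 in the 51 tested genes and 0.11 in all tested genes. For 48 of the 51 genes the 95% interval of the difference lay within a 1.5-fold change in either direction, as it did for 81.2% of all tested genes. The exceptions were Nsd3, Smyd2 and Suv39h2. The lowest adjusted p was 0.473 (limma), for Nsd3.

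**Figure D1:**
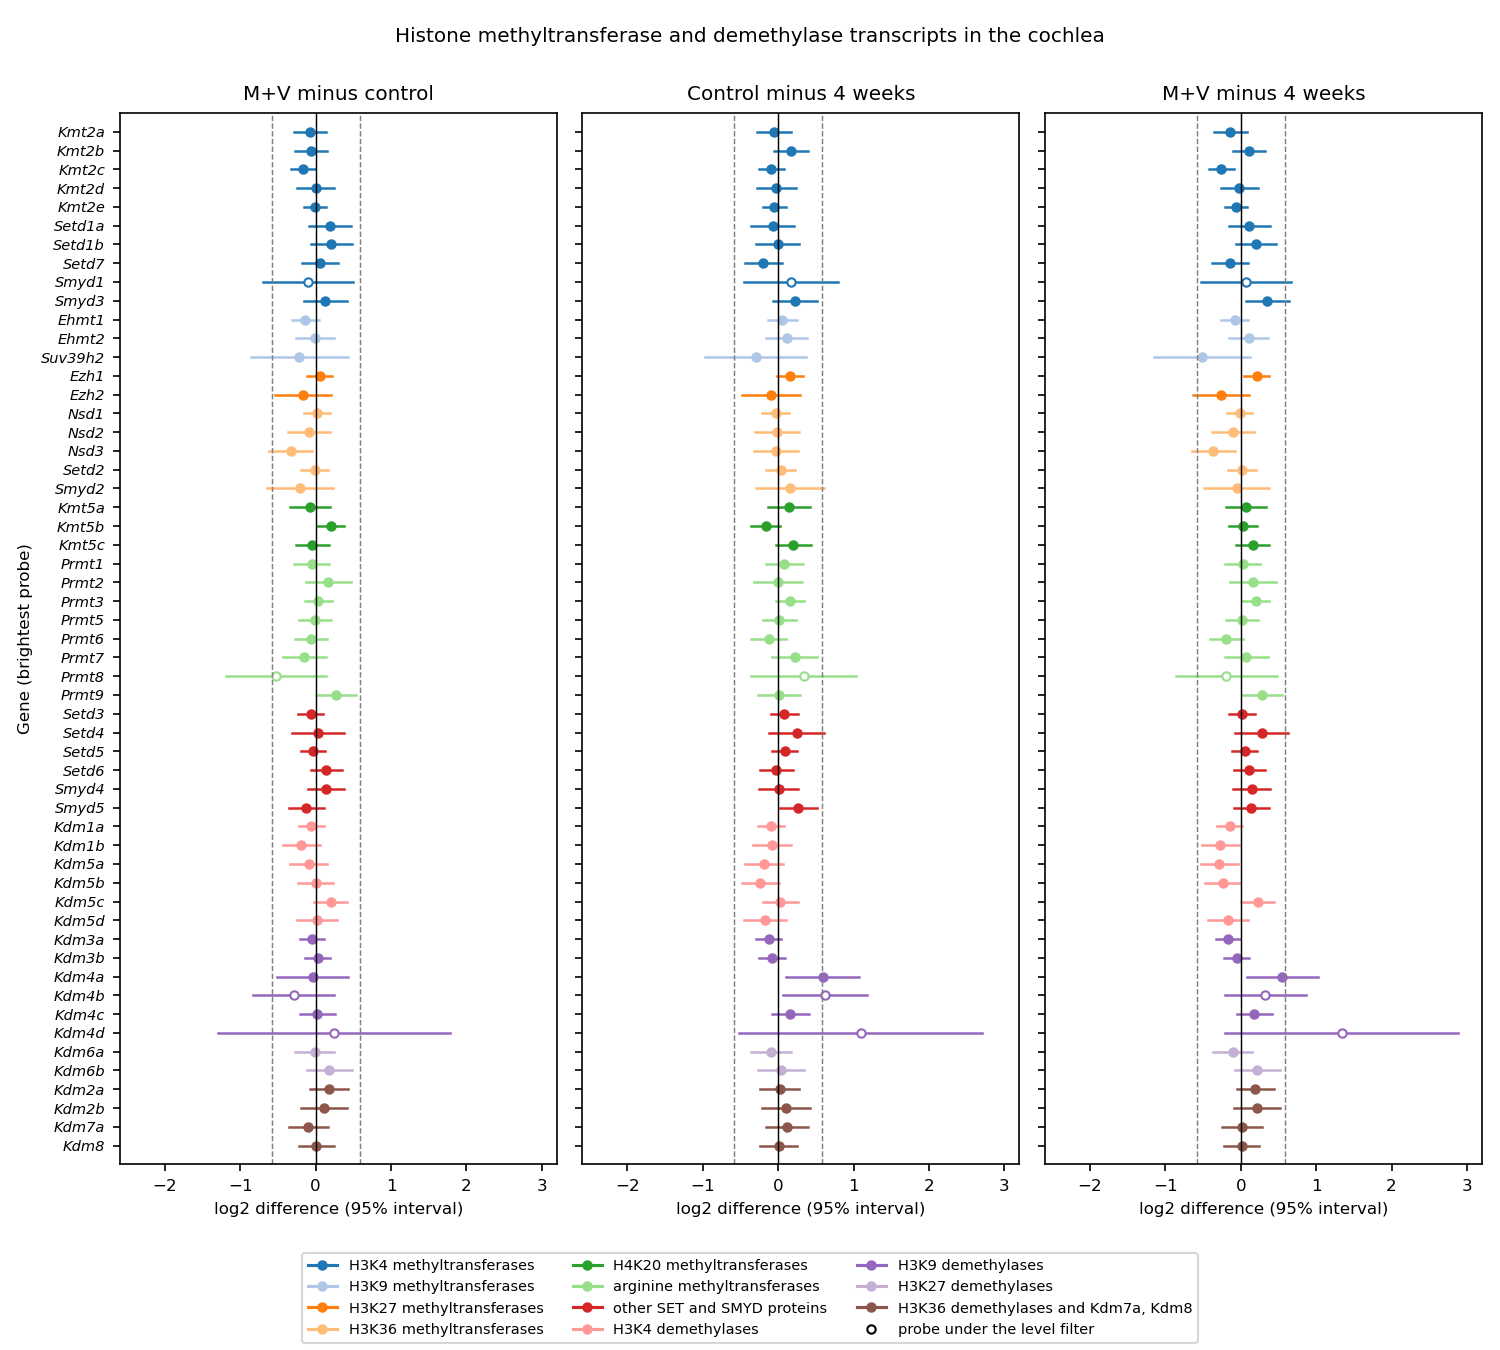
Log2 difference of group means (x axis) for the brightest probe of each of the 55 genes (y axis, grouped and coloured by role) in the 3 comparisons. Points are estimates, bars 95% intervals from limma, dashed lines a 1.5-fold change, and open points the 4 genes under the level filter. Between M+V and control, 48 of the 51 tested genes have an interval inside the dashed lines, and the widest intervals belong to the dim probes of Kdm4d, Prmt8 and Smyd1 and to Suv39h2.

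The H3K4 methyltransferases held the 1 tested gene whose M+V and control arrays did not overlap. Kmt2c, which methylates H3K4 at enhancers, read 10.97, 11.10, 11.03, 11.00 and 10.98 in the 5 control cochleae and 10.93, 10.63, 10.90, 10.93, 10.85 and 10.88 in the 6 M+V cochleae. Every M+V array was below every control array, by a small step that M+V replicate 2 widened. The log2 difference was -0.16 (SE 0.08, adjusted p = 0.503, limma), and groups that did not overlap, with M+V lower, made up 0.288% of all tested genes (0.9% in either direction). Within the low bioB level, with 4 arrays in each group, the difference was -0.14, and within the high level, with 1 control array, it was -0.19. Without M+V replicate 2 it was -0.12. A second probe of Kmt2c was at 0.12 for M+V over control, and its next 2 probes by brightness at -0.11 and -0.57 (adjusted p = 0.409, limma). The probes of this gene thus did not share a direction. Of the 10 genes in this group, which counts in Kmt2e, a protein that binds H3K4 methylation, 5 lay above 0 and 5 below. Setd1b and Setd1a, chosen here after their values were seen, the catalytic subunits of the SET1 complexes, were at 0.21 and 0.19 (adjusted p = 0.604 and 0.66, limma). Setd7, a monomethylase with many substrates outside histones, ranged from 11.74 to 12.40 in M+V and from 11.90 to 12.07 in control arrays. Its difference was 0.06 (95% interval -0.18 to 0.30).

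None of the 5 methyltransferases of H3K9 and H3K27 had an unadjusted p under 0.05 between M+V and control cochleae. Ehmt1, a partner in H3K9 dimethylation, was at -0.14 (95% interval -0.32 to 0.04). Suv39h2, an H3K9 trimethylase, ranged from 6.56 to 7.56 in control and from 5.96 to 7.56 in M+V arrays, with M+V replicates 3 and 6 at 5.96 and 6.12. Its pooled SD within groups, 0.556, was at the 97.2 percentile of tested genes, so its difference of -0.22 had an interval of -0.86 to 0.42. Suv39h1 had no probe of its own and was not analysed here. Ezh2, the H3K27 methyltransferase of dividing cells, read 11.28, 11.29, 11.11, 11.55 and 11.20 in control and 10.81, 11.33, 10.40, 11.58, 11.31 and 11.32 in M+V cochleae. M+V replicates 3 and 1 were the lowest of all 16 arrays, and the other 4 M+V arrays lay within the control range or just above it. The same 2 arrays had the lowest mean of 7 markers of proliferating cells, -0.77 and -0.43 against the mean of all arrays, and the part of this in the Ezh2 values was not tested. The difference was -0.16 (SE 0.18, adjusted p = 0.782, limma), and without M+V replicate 3 it was -0.02. Ezh1, its counterpart in resting cells, was at 0.05 by its brightest probe (95% interval -0.11 to 0.22).

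Among the H3K36 methyltransferases 4 of 5 lay below 0 after M+V. Nsd3 read 10.73, 10.95, 10.59, 10.74 and 10.54 in control and 10.43, 10.47, 9.88, 10.82, 10.36 and 10.32 in M+V cochleae. Apart from M+V replicate 4, which was within the control range, the M+V arrays lay below all 5 control arrays. The difference was -0.33 (SE 0.13, adjusted p = 0.473, limma), the largest of the tested genes, and it was -0.36 within the low bioB level and -0.28 within the high level. Its second probe went the other way, at 0.21 (adjusted p = 0.42, limma), and the 3 other tested probes were at -0.02, -0.18 and 0.05. Smyd2, which also methylates p53, was spread wider among M+V arrays (10.63 to 12.04) than among control arrays (11.25 to 11.82), and its difference of -0.21 had an interval of -0.65 to 0.22. Nsd1, Nsd2 and Setd2 were at 0.02, -0.09 and -0.01.

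Kmt5b, which turns monomethylated H4K20 into its di- and trimethylated forms, was the 1 gene higher after M+V at an unadjusted p under 0.05. It read 9.87, 10.10, 10.12, 10.10 and 9.87 in control and 10.21, 9.98, 10.31, 10.26, 10.25 and 10.23 in M+V cochleae. All M+V arrays but replicate 2 were above the highest control array. The difference was 0.20 (SE 0.09, adjusted p = 0.48, limma), 0.22 within the low bioB level, and 0.23 by its second probe (adjusted p = 0.458, limma), so its 2 tested probes shared a direction and neither passed. The 4-week arrays lay between 9.99 and 10.32, and the M+V mean of 10.21 was near their mean of 10.18. Kmt5a, which adds the first methyl group, was at -0.07 and Kmt5c at -0.04.

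**Figure D2:**
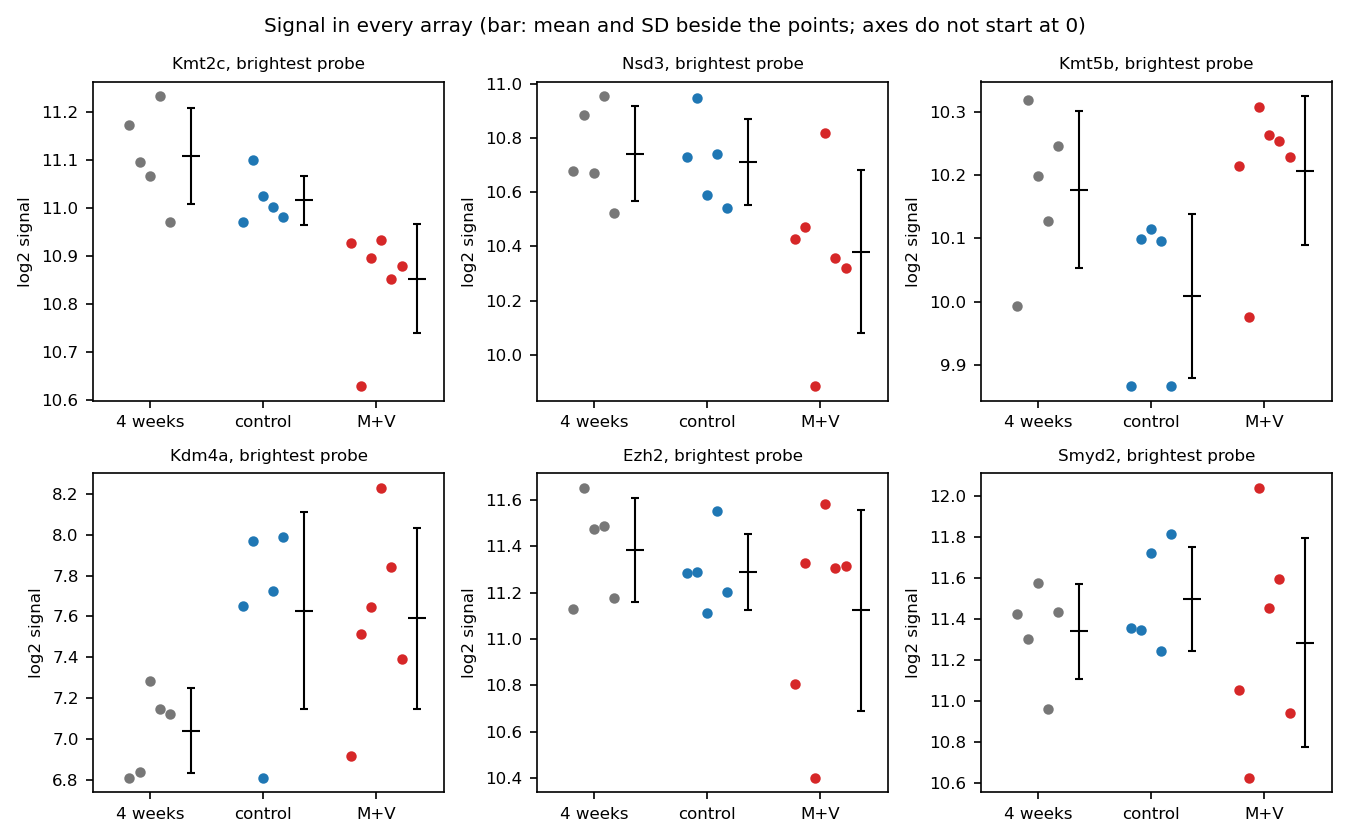
Log2 signal of the brightest probe (y axis, not from 0) in each of the 16 arrays for 6 genes, by group (x axis). Points are arrays, and the bar beside them is the mean with its SD. The 6 M+V arrays of Kmt2c lie below all control arrays, 5 of the 6 for Kmt5b lie above them, and control replicate 3 of Kdm4a lies apart from the other control arrays.

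The arginine methyltransferases held 8 genes, 3 above 0 and 5 below after M+V. Prmt9, which methylates a splicing factor, ranged from 8.44 to 8.98 in control and from 8.82 to 9.49 in M+V arrays. Its difference was 0.26 (SE 0.13, adjusted p = 0.51, limma), with 0.80 within the high bioB level, which holds 1 control array, and 0.08 within the low level. Without M+V replicate 1, at 9.49, it was 0.18. Prmt1, the main source of asymmetric arginine methylation, was at -0.05, and Prmt5, the main source of symmetric methylation, at -0.00 (95% interval -0.22 to 0.21). Prmt2, a coactivator of nuclear receptors, was at 0.17 (95% interval -0.13 to 0.47). Prmt8, a gene of neurons, was under the level filter, at 6.28 to 7.88 in control and 5.76 to 7.18 in M+V arrays, and was lowest in M+V replicates 2 and 1. Those arrays were also low in oligodendrocyte and astrocyte markers, but M+V replicate 5, the lowest in these markers, was at 6.83 for Prmt8, and the part of the markers in Prmt8 was not tested. The other SET and SMYD proteins, among them the actin methyltransferase Setd3 and Setd6, which methylates a subunit of NF-kB, lay between -0.12 and 0.14. Setd3 was at -0.07, and its M+V replicate 1 (10.41) was below the other 5 (10.72 to 10.87).

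The demethylases showed no call after M+V either. Of the H3K4 demethylases, Kdm1a, which removes 1 or 2 methyl groups, was at -0.06 (95% interval -0.22 to 0.11), and Kdm5a and Kdm5b, which act on the trimethylated form, were at -0.09 and -0.00. Of the 4 tested probes of Kdm5a 1 lay above 0 and 3 below, from -0.43 to 0.27. Kdm5c, the X-linked relative of Kdm5a and Kdm5b, ranged from 9.32 to 9.56 in control and from 9.43 to 9.97 in M+V arrays. M+V replicates 1 and 3 were above all control arrays and the other 4 were not. The difference was 0.20 (SE 0.10, adjusted p = 0.554, limma), 0.11 within the low bioB level and 0.43 within the high level. Of the H3K9 demethylases, Kdm3b, a relative of Kdm3a, was at 0.03 and Kdm4a at -0.04. Kdm4b and Kdm4d, both under the level filter, were the lowest and highest of these 6 genes, at -0.29 and 0.25. Kdm6a, the X-linked H3K27 demethylase, was at -0.01 by its brightest probe and at -0.31 by its second (adjusted p = 0.476, limma). Kdm6b, its inducible relative, read 9.46, 9.99, 9.77, 9.80 and 9.90 in control and 9.45, 9.69, 10.02, 10.31, 10.24 and 10.09 in M+V cochleae. M+V replicates 3 to 6, the arrays with the low bioB level, were above all control arrays, and replicates 1 and 2, with the high level, were not. Its difference was 0.18 (SE 0.14, adjusted p = 0.688, limma), 0.30 within the low level (adjusted p = 0.57) and 0.11 within the high level, which holds 1 control array. Its second probe was at -0.23. Kdm2a, a CpG-binding H3K36 demethylase, was at 0.17, and Kdm7a, which acts on H3K9 and H3K27, at -0.10. Over 3 tested probes each, Kdm2a ran from -0.29 to 0.17 and Kdm7a from -0.10 to 0.07.

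**Figure D3:**
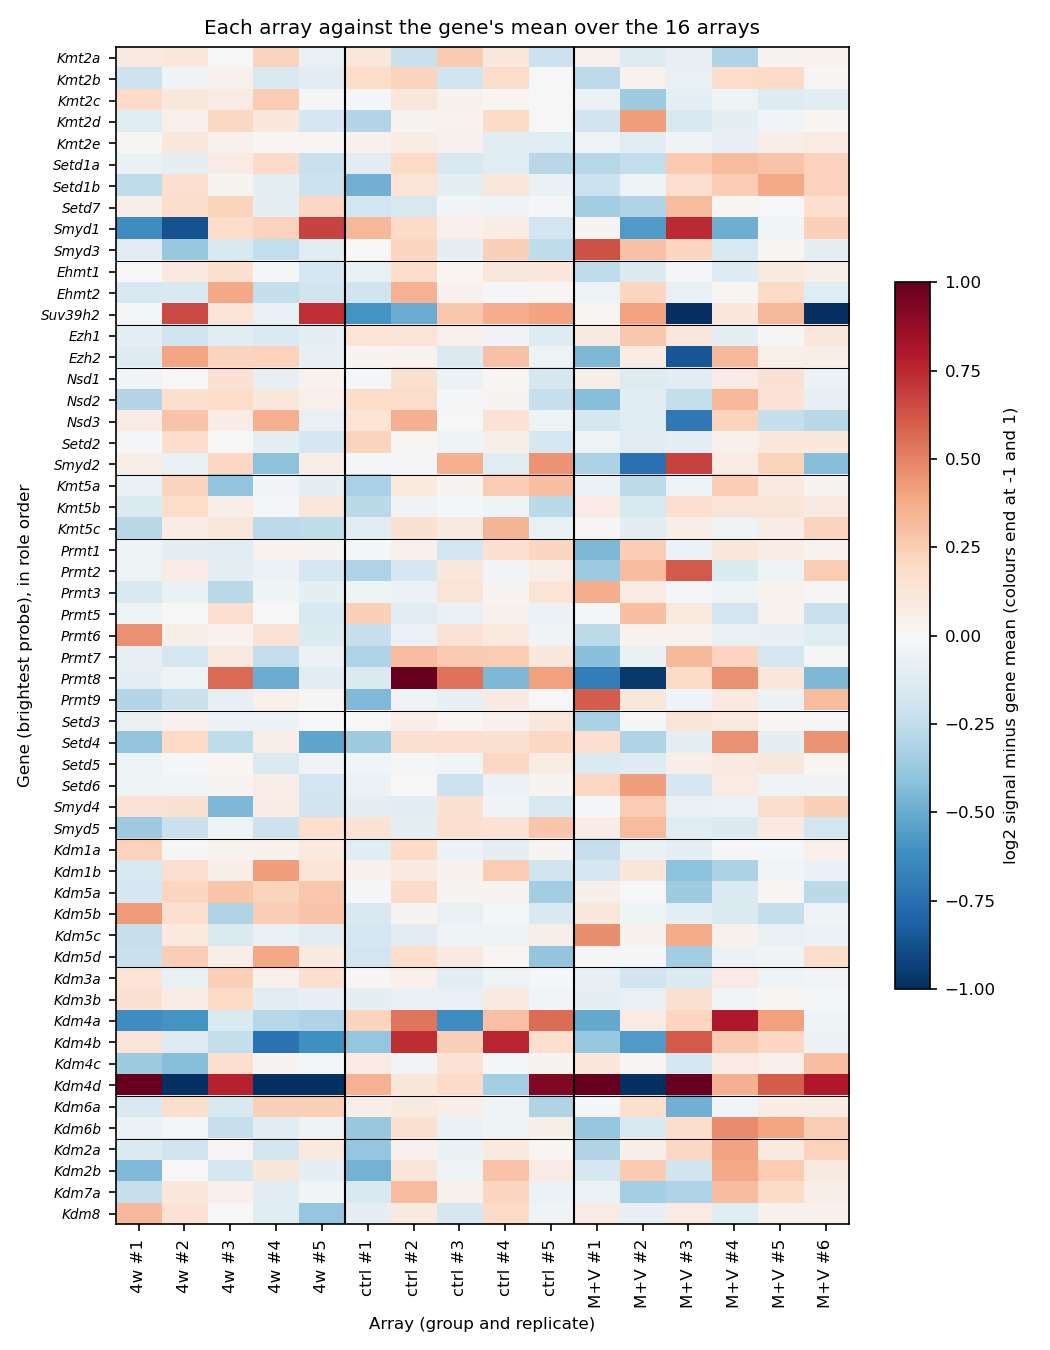
Log2 signal of each array minus the gene's mean over the 16 arrays, for the brightest probe of the 55 genes (rows, grouped by role) in the 16 arrays (columns, by group). Red is above and blue below the gene's mean, and colours end at -1 and 1. Most rows are pale in all 3 groups, and the strong colours belong to dim probes (Kdm4d, Prmt8, Smyd1), to Suv39h2 and to single arrays of Kdm4a, Ezh2, Nsd3 and Smyd2.

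From 4 weeks to 12 weeks with vehicle, none of these transcripts passed the limma test, and few of all tested genes did. Of the 51 tested genes 0 passed an adjusted p of 0.05, against 1.45% of all tested genes, and 2 had an unadjusted p under 0.05, Kdm4a and Smyd5, against 13.9%. The methods' t-test gave 6 of 51 at an unadjusted p under 0.05, a count not made over all genes. After adjustment it gave 0, against 189 of all 21391 tested probes. The median log2 difference was 0.02 over the 55 genes and 0.01 over all genes, and the 95% interval lay within 1.5-fold for 47 of 51, against 75.9%. No gene had groups that did not overlap, while 5.93% of all tested genes did. Kdm4a, which demethylates H3K9 and H3K36, was the 1 gene past the study's cutoffs, which 2.34% of tested genes passed. It read 6.81, 6.84, 7.28, 7.15 and 7.12 at 4 weeks and 7.65, 7.97, 6.81, 7.72 and 7.99 in control cochleae. Apart from control replicate 3, which was at the lowest 4-week value, all control arrays were above all 4-week arrays. The probe was tested through the M+V group alone. Control replicate 3 and 4-week replicates 1 and 2 were under the array median of 6.90, so neither group compared here met the filter. The difference was 0.59 (SE 0.23, adjusted p = 0.256, limma). Without control replicate 3 it was 0.79 (adjusted p = 0.0797), with the bioB level as a block it was 0.32 (adjusted p = 0.686), and within the high level, with 1 control array, it was 0.61 (adjusted p = 0.639). Because every 4-week array had the high level, the part of this in the difference was not tested further. The M+V arrays ranged from 6.92 to 8.23, at 0.55 over 4 weeks (SE 0.22, adjusted p = 0.154, limma). Its relatives Kdm4b and Kdm4d, both under the level filter, were at 0.62 (95% interval 0.06 to 1.18) and 1.09 (-0.52 to 2.70), and Kdm4c was at 0.16.

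Of the H3K4 demethylases 5 of 6 lay below 0 from 4 weeks to control and 1 above it, and 0 of the 6 had an unadjusted p under 0.05. Kdm5b read 9.52, 9.26, 8.80, 9.34 and 9.38 at 4 weeks, 8.94, 9.13, 9.03, 9.09 and 8.95 in control and 9.21, 9.05, 9.001, 8.96, 8.86 and 9.05 in M+V cochleae. At 4 weeks 4 arrays were above all 11 arrays of 12 weeks and replicate 3 was below them. The difference of control from 4 weeks was -0.24 (SE 0.11, adjusted p = 0.375, limma) and that of M+V from 4 weeks -0.24 (adjusted p = 0.213, limma). Without 4-week replicate 3 the second of these was -0.35 and passed (adjusted p = 0.0297). Kdm5a was at -0.19, Kdm5d at -0.18, Kdm1a at -0.09 and Kdm1b at -0.08, and Kdm5c was at 0.03 by its brightest probe. Of the 3 tested probes of Kdm5c 1 lay above 0 and 2 below, the lowest at -0.34. Setd7 was at -0.20 (95% interval -0.45 to 0.05) and Smyd5 at 0.26 (0.02 to 0.51). Ezh1 and Prmt3, an arginine methyltransferase that acts on a ribosomal protein, were both at 0.16, with adjusted p of 0.398 and 0.436 (limma).

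Between the M+V cochleae and those at 4 weeks, the comparison with the most calls over all genes, 0 of the 51 tested genes passed an adjusted p of 0.05, against 4.93% of all tested genes. At an unadjusted p under 0.05 there were 12 of 51, against 22.1% of all tested genes: 6 were higher, against 12.9%, and 6 lower, against 9.21%. The methods' t-test gave 9 of 51 at an unadjusted p under 0.05, a count not made over all genes. After adjustment it gave 0, against 257 of all 21391 tested probes. By the study's cutoffs 0 of 51 passed, against 3.87%. The 95% interval lay within a 1.5-fold change for 45 of 51, against 73.9%. This comparison holds age, injections and treatment at once, and it shares its arrays with the comparisons above. Kmt2c came nearest to a call. It read 11.17, 11.10, 11.07, 11.23 and 10.97 at 4 weeks, all above the M+V arrays given above, with a difference of -0.26 (SE 0.08, adjusted p = 0.0575, limma). It was the 1 gene with groups that did not overlap, against 5.08% of all tested genes in either direction and 2.73% with M+V lower. It passed with the bioB level as a block (-0.32, adjusted p = 0.0479) and without M+V replicate 1 (-0.27, adjusted p = 0.0463), and did not without M+V replicate 2 (-0.21, adjusted p = 0.105). Of the 4 tested probes of Kmt2c 3 lay below 0, the lowest at -0.54, and the second brightest was at 0.00146. The other genes lower at an unadjusted p under 0.05 were Nsd3 (-0.36), Kdm5a (-0.28), Kdm1b (-0.27), Kdm5b (-0.24) and Kdm3a (-0.17). Those higher were Kdm4a (0.55), Smyd3 (0.35), Prmt9 (0.28), Kdm5c (0.22), Ezh1 (0.21) and Prmt3 (0.20). Of these, Kdm4a met the filter through its M+V arrays alone, the group in which it was higher. The tested probes of Nsd3 ran from -0.36 to -0.01, and those of Kdm5c from -0.07 to 0.22. Smyd3, named after its values were seen, read 7.64, 7.38, 7.60, 7.50 and 7.63 at 4 weeks and 8.39, 8.05, 7.97, 7.59, 7.77 and 7.65 in M+V cochleae. M+V replicates 1 to 3 stood highest, and replicate 4 was within the 4-week range. Its adjusted p was 0.129, and with the bioB level as a block it passed, at 0.54 (adjusted p = 0.0424, limma). The median difference over the 55 genes was 0.03, as over all genes.

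Probes of the same gene often disagreed, and the calls that were made came from probes other than the brightest. Of the 55 genes 40 had more than 1 probe and 23 had 2 or more tested probes. All tested probes of a gene had the same sign in 11 of the 23 genes for M+V against control. This held in 10 for control against 4 weeks and in 14 for M+V against 4 weeks. The same count was not made over all genes, so whether these genes differ from others in this is not known. Over the 89 tested probes, 0 passed an adjusted p of 0.05 between M+V and control and 0 between control and 4 weeks, where 1.38% of all tested probes passed. Between M+V and 4 weeks 2 passed, both lower, against 5.28% of all probes in both directions and 3.2% lower. They were named after their values were seen. The second brightest probe of Ezh1 read 7.37, 7.35, 7.09, 7.59 and 7.43 at 4 weeks, 7.07, 7.33, 7.37, 7.30 and 7.07 in control and 7.03, 6.93, 7.14, 6.93, 7.03 and 6.84 in M+V cochleae. The M+V arrays lay near the array median of 6.90, with replicate 3 alone above the lowest 4-week array. M+V replicate 6 was under that median, so the probe met the filter only through the 4-week and control groups, where it was higher. It was lower than at 4 weeks, at -0.38 (SE 0.09, adjusted p = 0.0283, limma), while the brightest probe of Ezh1 was 0.21 higher (adjusted p = 0.118). The third brightest probe of Kmt2e, which encodes a protein that binds H3K4 methylation, read 10.53, 10.33, 9.82, 10.48 and 10.21 at 4 weeks, 10.16, 10.26, 10.11, 10.12 and 9.998 in control and 10.06, 9.46, 9.83, 9.76, 9.71 and 9.49 in M+V cochleae. All M+V arrays but replicates 1 and 3 were below every array of the other groups. It fell by 0.56 from 4 weeks on the log2 scale (SE 0.13, adjusted p = 0.0199, limma) and was at -0.41 from control (adjusted p = 0.403). The 2 other tested probes of Kmt2e that are not its brightest were at -0.31 and -0.34 from 4 weeks, and the brightest at -0.06 (SE 0.07), with every array between 11.51 and 11.74. Both calls depended on the processing. The Kmt2e probe missed the threshold without 4-week replicate 1 or 4 (adjusted p = 0.0582 and 0.059), with no filter (0.0774), by the methods' t-test (0.126), with the bioB level as a block (0.0657) and in the high bioB arrays alone (0.206). The Ezh1 probe kept it in 9 of the 16 fits that left out 1 array, and missed it with no filter (0.0985), with a filter at the 25th percentile (0.0514), by the methods' t-test (0.108) and in the high bioB arrays alone (0.154).

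**Figure D4:**
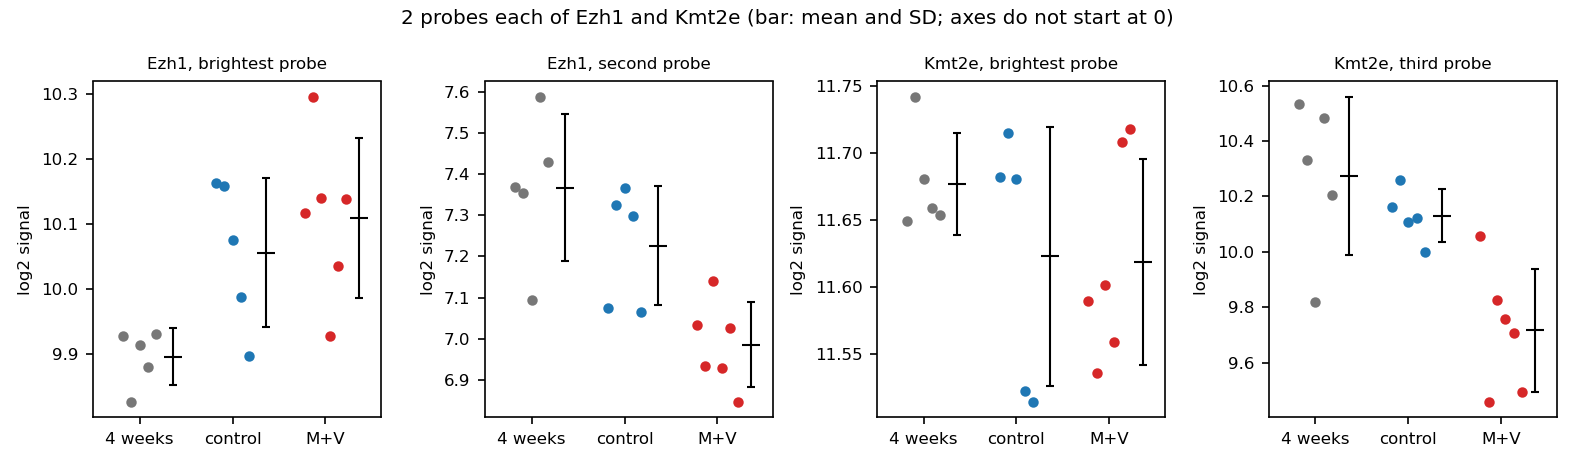
Log2 signal (y axis, not from 0) in each of the 16 arrays, by group (x axis), for 2 probes each of Ezh1 and Kmt2e. Points are arrays, and the bar beside them is the mean with its SD. The brightest probe of Ezh1 is highest after M+V and its second probe is lowest, and the third probe of Kmt2e is lowest after M+V while its brightest stays between 11.51 and 11.74.

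The probes that are not their gene's brightest were counted by sign, with no test. Of these 38 tested probes, 22 (57.9%) were below 0 for M+V against control, where 50.2% of such probes of all genes were. For control against 4 weeks 27 (71.1%) were below 0, against 54.7%, and for M+V against 4 weeks 30 (78.9%), against 55.3%. Several of these probes read the same gene, and the comparisons share arrays. Their median difference between M+V and 4 weeks was -0.08, against -0.03 over all genes. Kdm5a showed this in a gene whose 4 tested probes all lay below 0: its next 2 probes by brightness were at -0.58 and -0.59 between M+V and 4 weeks (adjusted p = 0.0786 and 0.248, limma), the brightest at -0.28 and the fourth at -0.00. Where in a transcript each probe lies was not used here, so isoforms were not compared.

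**Figure D5:**
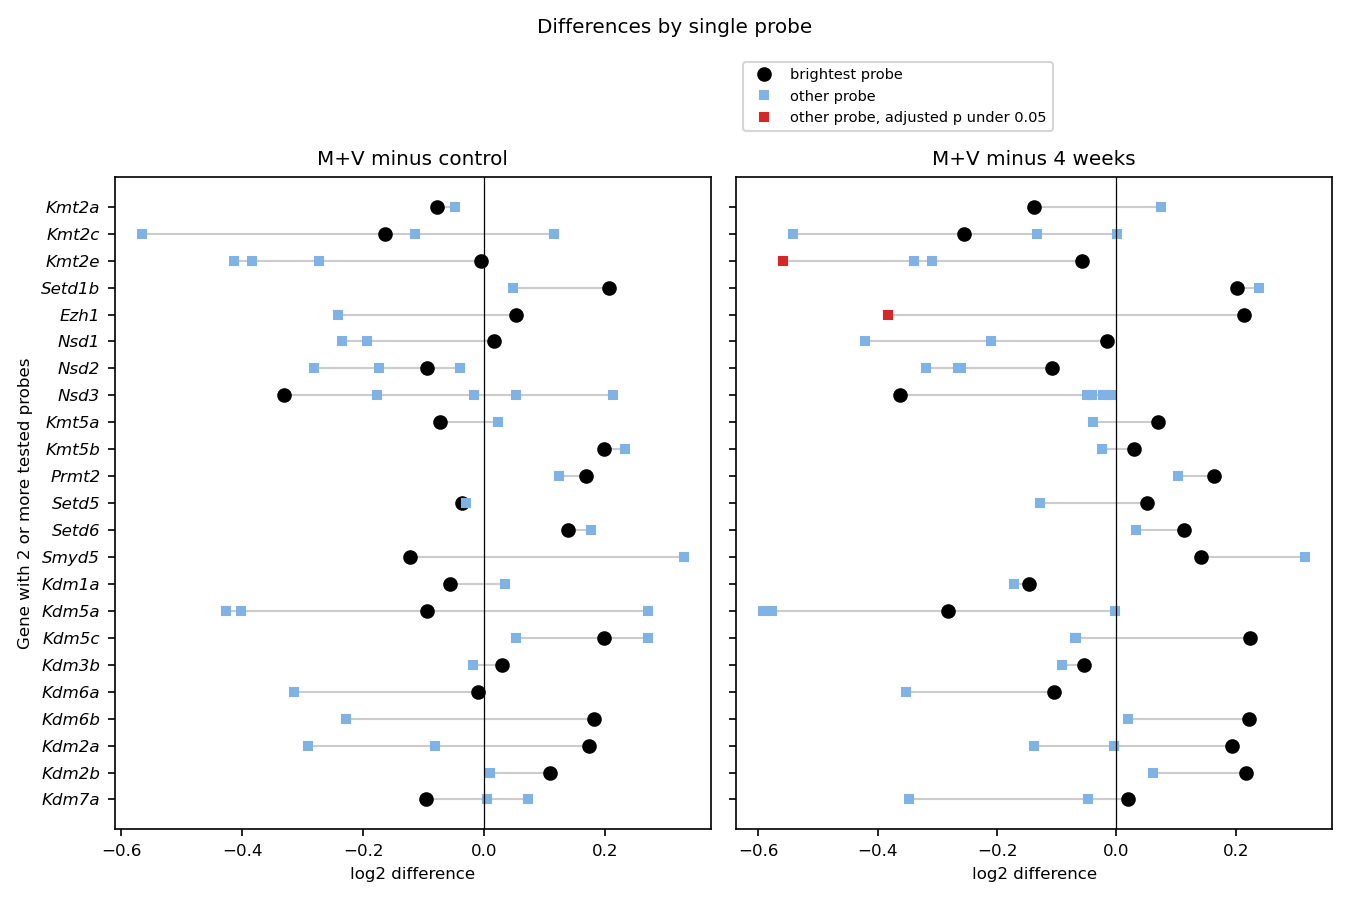
Log2 difference (x axis) of every tested probe for the 23 genes with 2 or more tested probes (y axis), for M+V against control and M+V against 4 weeks. Black circles are the brightest probes, blue squares the other probes, red squares the 2 probes with an adjusted p under 0.05, and grey lines join the probes of a gene. For Ezh1, Kdm5c and Kdm2a, among others, the probes lie on both sides of 0 in the right panel.

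The proteins that work with these enzymes gave 1 call in all. A list of 55 partners and related enzymes (subunits of the KMT2 and SETD1 complexes, of the Ezh complex PRC2 and of the Kdm1a corepressor, H3K9 and Prmt5 partners, and enzymes outside the naming rule) had 53 on the array and 49 tested. Of these, 0 passed between M+V and control (0% of all tested genes), 0 between control and 4 weeks (1.45%), and 1 rose and 0 fell between M+V and 4 weeks (4.93%). All 11 subunits of the KMT2 and SETD1 complexes lay between -0.13 and 0.14 for M+V against control. Of the 9 PRC2 genes 1 lay above 0 and the others between -0.19 and -0.00, with Suz12, a core subunit, at -0.19 (adjusted p = 0.563, limma). Dot1l, the H3K79 methyltransferase, was at -0.31 after M+V (adjusted p = 0.423, limma). The 1 gene called, no larger a share of the list than of all genes, was Riox1, a Jumonji oxygenase of the nucleolus, at 8.54 to 8.89 at 4 weeks, 8.66 to 9.85 in control and 9.12 to 9.89 in M+V cochleae. All M+V arrays were above all 4-week arrays, and the difference was 0.72 (SE 0.18, adjusted p = 0.0322, limma). It was at 0.60 in control over 4 weeks (adjusted p = 0.157) and at 0.12 in M+V over control.

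The pooled SD within groups had a median of 0.182 over the 51 tested genes and 0.207 over all tested genes. The median SE of a difference between M+V and control was 0.11.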

How the data were processed

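Total RNA of 16 whole left cochleae was hybridised to 1 array each. Per the labels and the study's methods, the authors used GCOS with MAS5 and then quantile normalization. The deposited log2 signals were not normalized again, and their sorted values were the same in all arrays. Versions are not given in the sources used here. The authors tested probes by MAS5 present calls, which were not used here. Values under a log2 of 0 (a signal of 1) were set to 0, which concerned 0.869% of values, and the 64 control probes were left out. Probes at or above the 50th percentile of their array in every array of at least 1 group were tested, 21391 of 45101. The 3 group means were estimated per probe by limma version 3.58.1 under R version 4.3.3 (lmFit, contrasts.fit, eBayes), two-sided, with Benjamini-Hochberg adjustment. The methods' t-test (Welch) was run on the same probes. The script was tested on simulated data. Of the probes, 34945 had 1 symbol in the array annotation, 932 several and 9211 none; all 55 genes matched RefSeq by gene identifier, with 0 symbols changed. Genes were named by level and moderated t within a role group, by the study's cutoffs and by calls; Smyd3, Setd1a, Setd1b, Kmt2e and others given in passing lie outside this rule and were chosen after their values were seen. The genes, lists and tests were chosen with earlier results of these data known. Replicate numbers were not used as pairs: over 15 same-numbered pairs the residuals correlated at a median of 0.01, against -0.02 elsewhere, with 6 pairs over 0.1. Each array is 1 mouse, and their number limits the precision.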

Additional observations from a re-analysis of the deposited data

Results flagged for a closer look

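In 84 groups of 5 or 6 arrays checked for a single array far from the rest, 6 held one, and chance flags about 1 group in 20. Kdm4a was at 6.81 in control replicate 3, with the other control arrays at 7.65 to 7.99. Kdm6a was at 9.59 in M+V replicate 3, with the others at 10.04 to 10.24. Kmt2c was at 10.63 and Kmt5b at 9.98 in M+V replicate 2, with the others at 10.85 to 10.93 and 10.21 to 10.31. In M+V replicate 1, the array with the low erythroid markers, Prmt3 was at 10.43 and Setd3 at 10.41, with the others at 10.02 to 10.16 and 10.72 to 10.87. Why these arrays differed was not tested.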

How the results depend on the processing

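For M+V against control 0 genes passed an adjusted p of 0.05 under every alternative run, and 1 (Prmt9) passed the study's cutoffs in the high bioB arrays alone, where the control group is 1 array, assumed to vary like the others. For control against 4 weeks 0 genes passed an adjusted p under every alternative. There the study's cutoffs gave 1 gene (Kdm4a) with all arrays and 2 with no filter or a filter at the 25th percentile. They gave 0 with log2(signal + 32), the bioB block or the Gapdh 3'-to-5' covariate. With a filter at the 75th percentile (31 genes tested) and by the second probe (23 tested) they also gave 0. Kdm4a was not tested in those 2 settings, so they do not bear on its difference. Genes past these cutoffs under an alternative were not counted over all genes. For M+V against 4 weeks 1 of 31 genes (Kmt2c) passed an adjusted p with a filter at the 75th percentile. Over all probes 977 of 10664 did. With the Gapdh covariate 1 of 51 (Ezh1) passed, against 1277 of 21391 probes. By the second probe 1 of 23 did (Ezh1, reversed to -0.38), against 1129 of 21391. Without M+V replicates 1 and 2, an alternative chosen after seeing the data, 1 of 51 passed (Kdm6b, adjusted p = 0.0295, limma), against 1372 of 21391. There every M+V array had the low and every 4-week array the high bioB level, so that level and group cannot be told apart. With the bioB block Kdm6b was at -0.13, and 2 of 51 passed (Kmt2c, Smyd3), against 1427 of 21391 probes. In the high bioB arrays alone Smyd3 was at 0.67. The study's cutoffs, 0 with all arrays, gave 2 without M+V replicates 1 and 2, a count not made over all genes. The median over the 55 genes moved with the bioB block to -0.0508 (control against 4 weeks) and -0.0749 (M+V against 4 weeks), and by the second probe to -0.0555 and -0.0435. Leaving out 1 array gave 0 to 1 calls for M+V against 4 weeks, where 591 to 1760 of 21391 tested probes passed. It gave 0 to 1 genes past the study's cutoffs for both comparisons with 4 weeks, a count not made over all genes. The medians then ran from -0.04 to 0.01, from -0.00439 to 0.05 and from 0.01 to 0.07 in the 3 comparisons. A replicate block, though the numbers do not pair the arrays, gave 1 gene past the study's cutoffs for M+V against 4 weeks (Kdm4a) and took the Kmt2e probe out of the calls (-0.51, adjusted p = 0.0519, limma) and the Ezh1 probe too (-0.36, adjusted p = 0.103); it changed no other call. The genes named by the rule and the 2 called probes of Kmt2e and Ezh1 gave 2326 values under an alternative. Of these, 2300 kept their side of the threshold, 6 came to pass, 19 no longer passed and 1 reversed. Most of the 2300 did not pass with all arrays either, so their number says little about how firm a call was. All 19 belonged to the Kmt2e and Ezh1 probes between M+V and 4 weeks, the only values that passed with all arrays. Smyd3 lies outside the rule, so its passes are not in this count. Causes were not tested.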

Other observations

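Among the 38 tested probes that are not their gene's brightest, the lowest array of a group was not evenly spread. At 4 weeks replicates 3 and 5 were the lowest array for 12 probes each. In control replicate 1 was the lowest for 16 and replicate 5 for 12, and in M+V replicate 2 for 13 and replicate 4 for 1. Over all 7402 probes of this kind, 4-week replicates 3 and 5 were the lowest for 22.2% and 21.7%. Control replicates 1 and 5 were so for 28.6% and 19.2%, and M+V replicates 2 and 4 for 19.6% and 13.3%. Control replicate 1 was also the lowest control array for 25 of the 51 brightest probes, a count not made over all genes. In 4-week replicate 3 the probes ranked 3 in brightness of Kmt2e (9.82) and Kdm5a (7.08) and ranked 4 of Kmt2c (7.98) all stood below the other 4-week arrays. In M+V replicate 2 the probes ranked 2 in brightness of Kmt2e (9.77) and Kdm5a (8.03) stood below the other M+V arrays. What these probes and arrays share was not tested.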
